A study of Mus musculus with 45 samples.

Results

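Epithelial and mesenchymal cells make different proteins from a shared set of genes by including or skipping particular exons, and 8 of those genes are described here: Numb, Ctnnd1, Enah, Slk, Arhgef11, Cd44, Fgfr1 and Fgfr2. They were taken by name, as every transcript of the deposited long-read annotation whose identifier starts with one of the 8 symbols. That gave 196 of the 276608 transcripts and 8 of the 23575 genes in the deposited tables. Of the 196, 19 matched an annotated transcript over all splice junctions, 43 matched part of one, and 134 had a new combination of known junctions (39) or at least 1 junction not in the reference annotation (95).

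The exons concerned are short cassettes, most of them in frame, which change a binding surface without changing the rest of the protein. In epithelial cells the RNA-binding proteins ESRP1 and ESRP2 promote the epithelial choice at many of them, and factors such as RBFOX2, QKI and PTBP1 act on overlapping sets. Reprogramming of a somatic cell to pluripotency includes a mesenchymal-to-epithelial transition, so these exons are of interest along such a course.

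The study followed mouse neural progenitor cells (NPC) toward induced pluripotency by nanopore cDNA sequencing. The NPC had been made from Oct4-GFP ES cells (O4G, an R1 derivative with a green reporter under the Oct4 promoter), and the lines of the courses were stably transfected and carry the genotypes OKMS-Luciferase-AS or OKS-Luciferase-AS, which induce Oct4, Klf4 and Sox2 with or without c-Myc. Factors were induced in medium with serum and LIF (FBS-LIF) plus doxycycline at 1 µg/mL, and a few dishes were switched to 2i-LIF, which lacks serum and holds cells in the naive pluripotent state. A total of 22 libraries were made from poly(A)+ RNA by direct cDNA sequencing on R9.4.1 flow cells (R9), and 23 from total RNA by PCR cDNA sequencing on R10.4.1 flow cells (R10).

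The R10 libraries were 4 NPC (1 OKMS, 1 OKS, 2 WT), 2 WT cultures given FBS-LIF and doxycycline for 2 days, 5 OKMS (days 2, 4, 6, 10 and 18) and 3 OKS (days 2, 6 and 18) in FBS-LIF with doxycycline, 2 cultures in 2i-LIF at day 18, and 7 embryonic stem cell (ESC) libraries in 2i-LIF (2 O4G, 3 R1, 2 R1 clone 3). The R9 libraries were 4 NPC (1 OKMS, 1 OKS, 2 WT), 1 WT culture in FBS-LIF with doxycycline, 6 OKMS and 6 OKS (days 2, 4, 6, 10, 14 and 20), 3 cultures in 2i-LIF from day 6, and 2 ESC (O4G, R1). The OKMS and OKS courses had 1 library per system, day and chemistry. The labels do not say whether libraries of a group came from separate cultures, so p-values measure only the spread between these libraries.

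Gene reads per library were 447990 to 1390424 in R9 and 566599 to 4236442 in R10. Markers matched the labels: all 6 pluripotency genes were higher and all 6 progenitor genes lower in ESC than in NPC in both chemistries. All 6 epithelial genes (Cdh1, Epcam, Krt8, Krt18, Cldn6, Cldn7) were higher and all 6 mesenchymal genes tested were lower. Their summed level was 0 to 8.76 CPM (gene reads scaled to a common library total) in the R10 NPC libraries against 122 to 323 CPM in R10 ESC for the epithelial genes, and 1875 to 2360 CPM against 182 to 383 CPM for the mesenchymal genes. Summed neuronal markers were 6.03 to 13.7 CPM in R10 NPC and 37.4 to 133 CPM in R10 ESC. In R10 ESC 3 of the 4 neuronal genes measured had a mean under 1 CPM, and of 2 tested 1 was higher and 1 lower. Summed astrocyte markers were 42.6 to 181 CPM in R10 NPC and 10.8 to 23.4 CPM in R10 ESC. Of the 3 astrocyte genes tested in R10, 1 was higher in ESC, 1 was lower and 1 was not called. The part of such cells in the results was not tested. In R10, 10 libraries (6 of the 7 ESC and the 4 of day 18) carry a library name in the labels and 13 do not, so 1 ESC library (R1 replicate 3) shares the set of the NPC libraries. Transcripts matching only part of an annotated one made up 14.6 to 20.3% of the TPM (length-scaled transcript reads) in those 10 libraries and 7.84 to 12.9% in the other 13. ESC against NPC and library set therefore cannot be told apart beyond that 1 library.

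Exons by which these genes are known are printed with 10 flanking exonic bases of their neighbours in lower case and the exon itself in capitals, 5′ to 3′ on the strand of the gene, from GENCODE M21 transcripts (GRCm38). The Numb exon is shown because its inclusion differed between states. The Enah, Ctnnd1 and Arhgef11 exons are the short in-frame cassettes that did not differ by the tests on reads or had too few reads to test. The Slk exon is shown because no transcript of the deposited annotation held it.
Numb 33-base exon, chr12:83825259-83825291, minus strand: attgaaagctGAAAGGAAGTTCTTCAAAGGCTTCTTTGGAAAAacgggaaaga
Enah 63-base exon, chr1:181911597-181911659, minus strand: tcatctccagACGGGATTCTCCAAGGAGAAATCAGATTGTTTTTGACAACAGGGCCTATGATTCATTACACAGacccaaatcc
Ctnnd1 63-base exon, chr2:84605184-84605246, minus strand: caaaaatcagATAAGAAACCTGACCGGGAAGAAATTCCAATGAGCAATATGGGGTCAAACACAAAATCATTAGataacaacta
Arhgef11 30-base exon, chr3:87718229-87718258, plus strand: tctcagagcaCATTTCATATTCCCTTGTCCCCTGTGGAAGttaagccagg
Slk 93-base exon, chr19:47627648-47627740, plus strand: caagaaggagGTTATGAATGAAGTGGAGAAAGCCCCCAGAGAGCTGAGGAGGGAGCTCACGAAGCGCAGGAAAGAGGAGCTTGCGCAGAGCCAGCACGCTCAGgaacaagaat

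Numb encodes an adaptor that inhibits Notch signalling and takes part in endocytosis. Its 33-base cassette adds 11 codons to the phosphotyrosine-binding (PTB) domain and its 147-base cassette adds 49 codons to the proline-rich region. The 33-base exon was in 4 of 32 reads (12.5%, 95% Clopper-Pearson interval 3.51 to 29.0%) in R10 NPC and in 45 of 61 reads (73.8%, 60.9 to 84.2%) in R10 ESC. Such intervals cover counting error only, since PCR reads carry no molecular identifier.

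Library by library, the NPC reads with the exon were 1 of 7 (OKMS), 2 of 10 (OKS), 1 of 9 (WT 2) and 0 of 6 (WT 3). The ESC reads were 13 of 14 and 4 of 7 (O4G), 11 of 11, 2 of 4 and 2 of 4 (R1), and 7 of 10 and 6 of 11 (R1 clone 3). The highest NPC library lay at 20.0% and no ESC library lay below 50%, so the groups did not overlap, and R1 replicate 3, the ESC library in the set of the NPC libraries, had 2 of its 4 reads with the exon. The difference was 61.3 percentage points (edgeR quasi-likelihood test on reads, adjusted p = 0.000127), and it was called in each fit that left out 1 library (55.5 to 65.5 points, adjusted p 4.24e-05 to 0.00196). In this test, which counts as skipping only junctions between splice sites that including transcripts also use, 868 of 18651 exons were called (4.65%). An exon was called when its adjusted p was under 0.05 and its inclusion differed by at least 10 points. Of the 13 exons of the 8 genes that could be tested in this way, 2 were called, both higher in ESC: this exon and a Ctnnd1 exon described further on. The test on cassette reads was chosen after the data were seen. The main test, on TPM and described further on, did not call the Numb exon.

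None of the Numb reads with the exon came from a transcript matching only part of an annotated one, so the 4 of 32 and 45 of 61 are also the values without such transcripts. The reads in ESC came from 3 transcripts with 22, 13 and 10 reads, and the reads in NPC came from the first of them.

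Other R10 cultures had few reads over the exon, and their values ranged widely. WT cells given FBS-LIF and doxycycline had the exon in 4 of 15 and 11 of 32 reads (31.9% together) against 1 of 15 reads in WT NPC (6.67%), a difference that did not pass the test (adjusted p = 0.414). OKMS cultures held it in 5 of 8 reads at day 2, 0 of 2 at day 4, 5 of 7 at day 6 and 3 of 4 at day 10 (13 of 21, 61.9%). OKS cultures held it in 10 of 26 reads at day 2, 8 of 30 at day 6 and 1 of 3 at day 18 (19 of 59, 32.2%). The 2i-LIF cultures had 3 reads in all, each with the exon.

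R9 could not show this contrast, since its 2 ESC libraries had 0 reads over the exon. The R9 NPC libraries had the exon in 6 of 9 reads (66.7%, 29.9 to 92.5%), against 4 of 32 (12.5%, 3.51 to 29.0%) in R10 NPC. In R9 the exon was in 6 of 18 OKMS reads and 10 of 21 OKS reads (adjusted p = 1, edgeR), and in 0 of 6 reads of WT progenitors in FBS-LIF. Over all 45 libraries it was in 122 of 278 reads (43.9%).

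The longer 147-base exon was in 0 of 32 reads in R10 NPC, which allows up to 9.38% (3 reads of the total). A limit of this kind is given only where a deposited transcript holds the exon. In R10 ESC the 147-base exon was in 10 of 61 reads (16.4%, adjusted p = 0.0882). It was also in 6 of 21 R10 OKMS reads, 4 of them at day 6, in 5 of 59 R10 OKS reads and in 1 of 47 reads of WT progenitors in FBS-LIF. All 10 ESC reads with the long exon came from a transcript that held the short exon as well. An 85-base exon in the 5′ untranslated region was in 20 of 36 reads in NPC and 55 of 76 in ESC (adjusted p = 0.49).

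**Figure D1:**
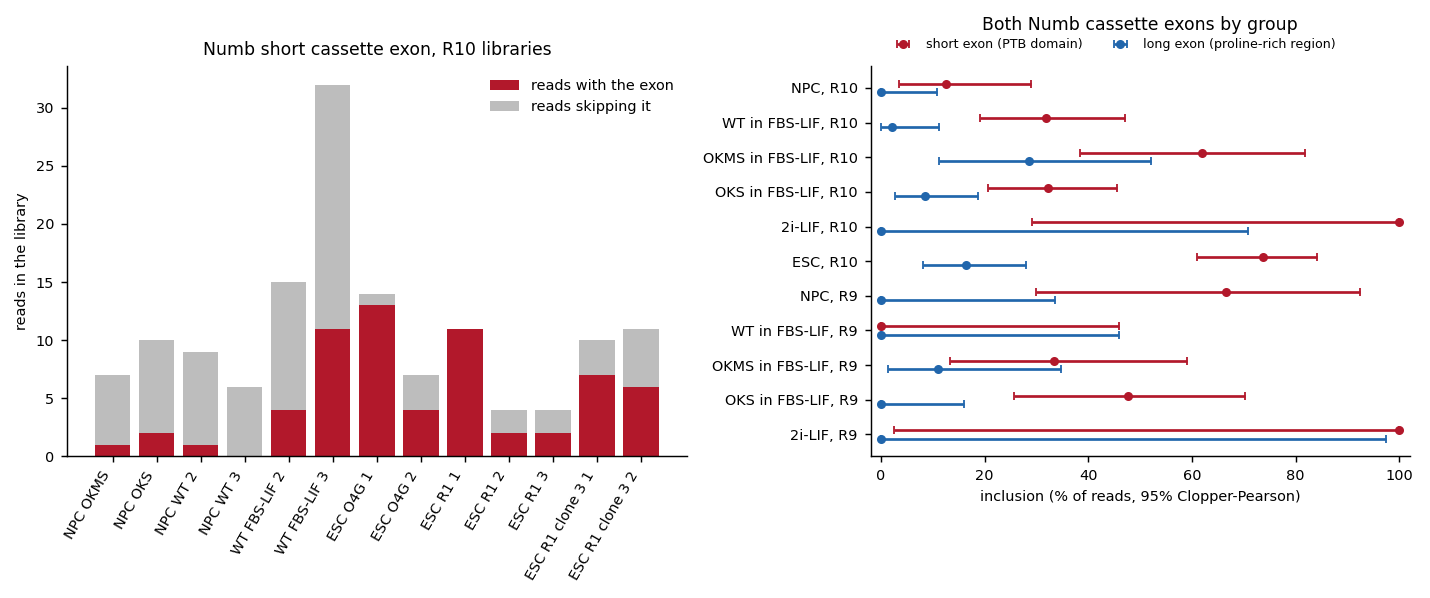
Left, stacked bars of R10 reads with (red) and without (grey) the 33-base Numb exon, 1 bar per NPC, WT FBS-LIF and ESC library. Right, inclusion in percent of the 33-base (red) and 147-base (blue) exons by group, points with 95% Clopper-Pearson intervals. The 33-base exon stands at 12.5% in R10 NPC and 73.8% in R10 ESC, while R9 NPC stands at 6 of 9 reads.

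Over all exons, a wider test was made on TPM, in which any intron that spans an exon counts as skipping. In R10 ESC against NPC it called 22 of the 31 exons of the 8 genes that passed the filter, 17 higher and 5 lower in ESC, where 17% of the 18255 exons of all genes were called (11.9% higher and 5.09% lower). Without the minimum of 2 TPM, 23 of 33 were called, against 17.7% of all exons, and the Numb 33-base exon was then among them (10.9 to 75.6%, adjusted p = 0.0029). With a minimum of 5 TPM 10 of 17 were called, 5 higher and 5 lower, against 15.9%, and with both chemistries in 1 fit 11 of 14, 2 higher and 9 lower, against 13.2%. The filter had left 17 Ctnnd1, 13 Enah and 1 Numb exon, and none of Slk, Arhgef11, Cd44, Fgfr1 or Fgfr2. Neighbouring exons of a gene are read on the same transcripts, so these counts are not counts of separate events. An exon could also pass the filter where the reads with it, or those without it, came from 1 group alone. Within the set of the NPC libraries, with R1 replicate 3 as the 1 ESC library, 0 of 25 exons were called (limma), against 2.09% of all exons, 3 of the 25 at an unadjusted p under 0.05. Some differences were about as large there without passing, the 69-base and 72-base Ctnnd1 exons for example at 45.2 and 34.6 points (adjusted p = 0.51 and 0.317). With edgeR on reads 18 of 31 were called, against 15.8% of all exons. Where skipping was limited to junctions of cassettes, 2 of 3 exons were called, against 10.6% of all, 1 higher and 1 lower.

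**Figure D2:**
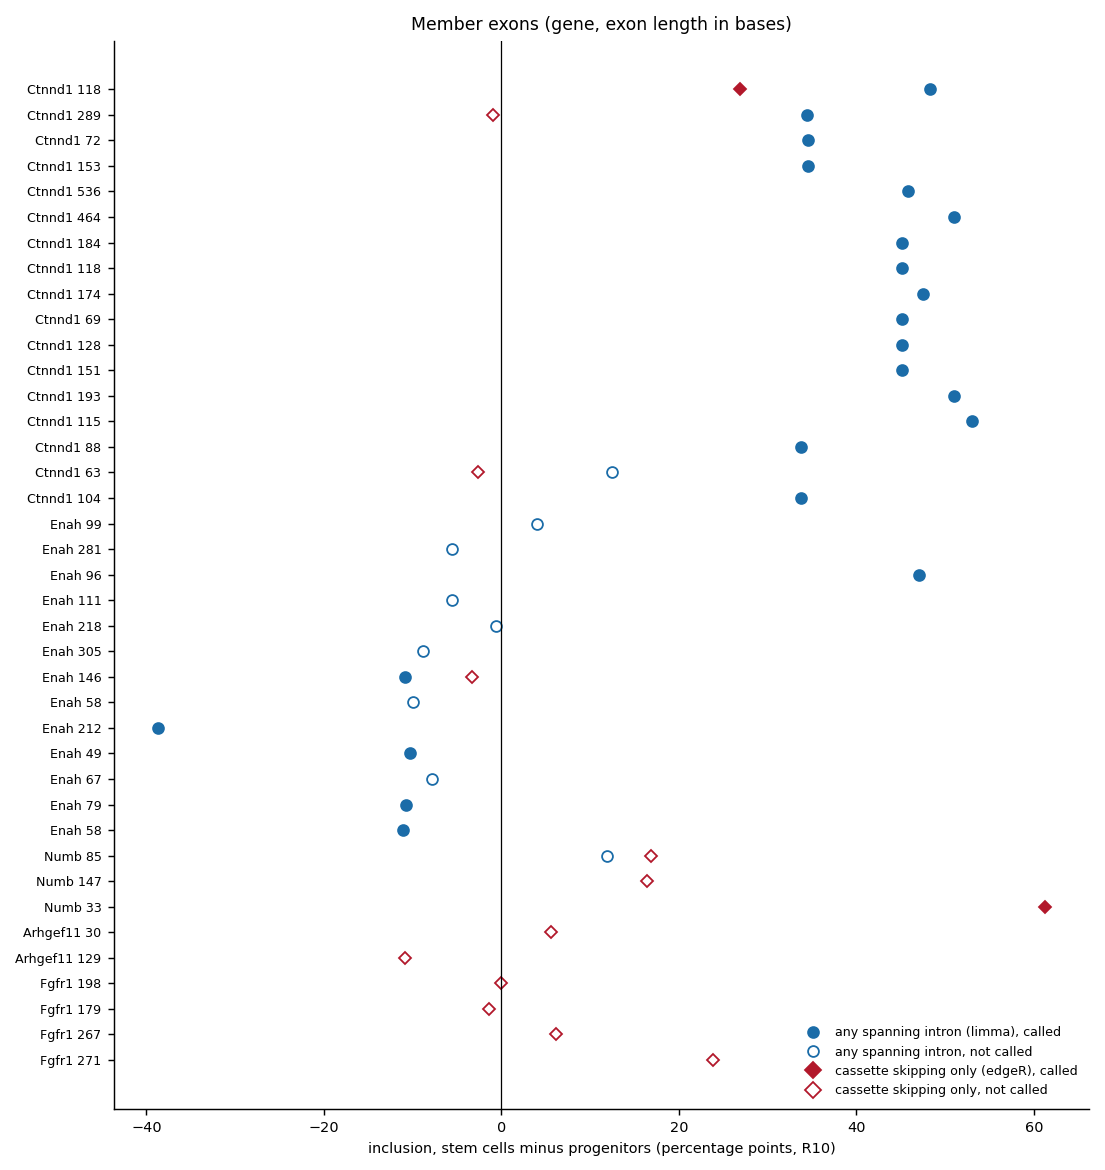
Difference of inclusion between R10 ESC and R10 NPC in percentage points for each tested exon, labelled by gene and length. Blue circles count any spanning intron as skipping (limma), red diamonds only cassette junctions (edgeR), and filled symbols were called. The body exons of Ctnnd1 have circles at 33.7 to 53.0 points and no diamond, since no cassette read skipped them.

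Ctnnd1 encodes p120-catenin, which binds the juxtamembrane part of cadherins and holds them at the surface. It had 35 transcripts, of which 23 were predicted targets of nonsense-mediated decay. Of its 17 tested exons 16 were called higher in ESC, by 33.7 to 53.0 points, the 115-base exon for example at 47.0% in NPC and 100% in ESC (adjusted p = 0.000326). Apart from a 118-base exon described further on, these spanned most of the coding body from the 72-base to the 104-base exon. The 88-base exon lost its call without NPC OKS or NPC WT 3 (adjusted p = 0.0727 and 0.0679).

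The skipping of those body exons in R10 came from a transcript that joins the far ends of the gene. This 730-base noncoding transcript splices a 93-base first exon (chr2:84665332-84665424) directly to chr2:84600783-84601419. Its reads in R10 NPC were 2, 3, 2 and 4, and it had 0 in each of the 7 R10 ESC libraries, a fall from 22.9% to 0% of Ctnnd1 TPM (limma, adjusted p = 2.99e-04). It also had 3 reads in R10 OKMS, and in R9 10 in NPC, 4 in OKMS, 10 in OKS, 8 in 2i-LIF and 0 in ESC. TPM divides reads by length, so the 11 reads of this short transcript weigh as much as many more reads of the full-length forms: the 464-base coding exon, for one, was in 71 reads in R10 NPC against those 11. A separate 1503-base transcript with 6 exons, predicted to undergo decay, had 25 reads over the 4 NPC libraries and 0 in ESC (24.9% to 0%, adjusted p = 1.00e-04).

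These were among 7 of 16 tested transcripts of the 8 genes whose share was called in R10 ESC against NPC, 3 higher and 4 lower, against 12.9% of the 50306 transcripts of all genes (7.02% higher, 5.92% lower). A transcript could pass the filter through the group where it was high alone. Shares within a gene are also tied to each other, so the 7 are not separate events. The Ctnnd1 transcript that rose was a 990-base partial match of an annotated transcript, with 10 reads in the 4 NPC libraries and 122 in ESC and with the first exon chr2:84650406-84650735. Its share was 15.5% of Ctnnd1 TPM in NPC and 71.5% in ESC (limma, adjusted p = 8.49e-06). By reads it was 10 of 145 in NPC and 122 of 315 in ESC, since TPM weighs short transcripts more. It had 0 reads in every FBS-LIF and 2i-LIF library. In R9 it had 0 of 7 and 0 of 3 Ctnnd1 reads in the 2 ESC libraries and 1 read in NPC, so the difference was not seen there. Within the R10 set of the NPC libraries none of these 3 Ctnnd1 transcripts was called: the 990-base one stood at 54.3% in ESC (adjusted p = 0.0933), and the 730-base and 1503-base ones at 0% (adjusted p = 0.474 and 0.348).

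That transcript carries a 118-base exon of the 5′ untranslated region (chr2:84626020-84626137), the other exon called on cassette reads. The exon was in 13 of 89 reads (14.6%, 8.01 to 23.7%) in R10 NPC and in 126 of 304 (41.4%, 35.9 to 47.2%) in R10 ESC (adjusted p = 0.00523, edgeR). The NPC libraries had 2 of 23 (OKMS), 3 of 16 (OKS), 3 of 27 (WT 2) and 5 of 23 (WT 3) reads with it. The ESC libraries had 34 of 69 and 14 of 39 (O4G), 23 of 47, 15 of 52 and 4 of 17 (R1), and 22 of 43 and 14 of 37 (R1 clone 3). R1 replicate 3, at 4 of 17, was the lowest ESC library and lay closest to the highest NPC library, at 5 of 23. The call rests on the partial match: without transcripts of that kind the exon was in 3 of 79 reads (3.80%) in NPC and 4 of 178 (2.25%) in ESC. In FBS-LIF it was nearly absent, with 2 of 280 reads over all libraries, and it was in 0 of 15 reads in 2i-LIF, in 2 of 14 in R9 NPC and in 1 of 9 in R9 ESC.

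The 63-base Ctnnd1 cassette, whose 21 codons lie toward the C-terminus, was common in both states. It was in 440 of 648 reads over all libraries (67.9%), in 67 of 92 (72.8%) in R10 NPC and 127 of 181 (70.2%) in R10 ESC (adjusted p = 0.871, edgeR). In R9 it was in 32 of 38 OKMS reads and 32 of 45 OKS reads (adjusted p = 1). On the TPM scale its direction turned with the definition of skipping: 56.3% in NPC and 68.7% in ESC with any spanning intron (adjusted p = 0.46), and 85.2% and 68.7% with cassette junctions only (adjusted p = 0.0348). Reads were counted by deposited transcript, and none holds the 18-base or 87-base coding cassette of Ctnnd1. Their counts of 0 among 199 and 635 reads were thus fixed by the annotation. A 289-base exon, partly coding, was in 670 of 711 reads. Without partial matches it was in 76 of 79 reads (96.2%, 89.3 to 99.2%) in R10 NPC and 165 of 178 (92.7%, 87.8 to 96.1%) in R10 ESC, values given here without a test.

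Enah encodes Mena, an actin regulator of the Ena/VASP family that keeps filaments growing at the leading edge. Its epithelial form is marked by the 63-base exon 11a, which adds 21 codons. That exon was rare everywhere: 17 of 465 reads (3.66%, 2.14 to 5.79%). It was in 1 of 37 reads in R10 NPC and 3 of 109 in R10 ESC, in 0 of 43 in R9 NPC and 3 of 44 in R9 ESC, and in 3 of 47 reads of the 2i-LIF cultures against 6 of 153 of all ESC (adjusted p = 0.965). Of the 17 reads 11 came from a transcript matching only part of an annotated one. Without such transcripts the exon was in 6 of 237 reads, with 1 of 16 in R10 NPC and 1 of 58 in R10 ESC. The exons of 12, 57 and 12 bases are in no deposited transcript, so their 0 of 245 reads each was fixed by the annotation.

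Most Enah reads were of a pair of short noncoding transcripts that share a 24-base first exon (chr1:181927600-181927623) and the 3′ end of the last exon (chr1:181902958) but differ in the middle exon and in where the last exon starts, at 181903457 in one and 181903765 in the other. The 620-base form holds a 96-base exon (chr1:181921856-181921951) and the 1044-base form a 212-base exon (chr1:181917872-181918083). Together they had 1019 of the 1769 Enah transcript reads (57.6%) and were seen in 41 of the 45 libraries: 23 with only the 212-base form, 5 with only the 96-base form and 13 with both.

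The 96-base form was not detected in progenitors, with 0 reads in every NPC, WT and OKMS FBS-LIF library of both chemistries. In the R10 ESC libraries it had 48 and 21 (O4G), 33, 34 and 16 (R1) and 35 and 22 (R1 clone 3) reads, and in R9 ESC 13 and 26. Its share of Enah TPM was 0% in R10 NPC and 42.8% ± 9.46 (SD, n = 7) in R10 ESC (limma, adjusted p = 4.71e-07), and the share of the 212-base form was 73.6% ± 8.55 (n = 4) and 40.3% ± 9.49 (n = 7) (adjusted p = 8.61e-04). Within the set of the NPC libraries, with R1 replicate 3 as the single ESC library and its spread taken as that of the NPC group, the 96-base form stood at 27.9% against 0% (adjusted p = 0.0238), the 1 called of 33 transcripts of the 8 genes, against 0.974% of all transcripts, and the 212-base form at 54.9% against 73.6% (adjusted p = 0.447).

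In the courses reads of the 96-base form were seen in OKS libraries and in no OKMS library in FBS-LIF. In R9 OKS it had 0 reads at day 2, 14 at day 4, 17 at day 6, 8 at day 10, 21 at day 14 and 21 at day 20, and in R10 OKS 27 reads at day 6 and 0 at days 2 and 18. The R9 2i-LIF cultures had 11, 10 and 16 reads of it and the R10 2i-LIF cultures 0 and 0, where the 212-base form had 10 in each. In R9 OKMS against OKS over 6 shared days the 212-base exon was included at 45.7% in OKMS and 4.08% in OKS (adjusted p = 0.0159), the 1 exon called of 31 tested, against 1.11% of all exons. The call was lost with a pseudocount of 0.25 TPM, with a fit on percent and without day 4, day 10 or day 14.

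The 96-base exon rose from 0% in R10 NPC to 47.0% in R10 ESC (adjusted p = 5.46e-07), and within the set of the NPC libraries the difference was 30.9 points with an adjusted p of 0.0536. The 212-base exon fell from 80.9% to 42.2% (adjusted p = 0.00032), and within the set it stood at 59.1% in ESC (adjusted p = 0.522). Exons of 58, 79, 49 and 146 bases fell by 10.3 to 11.1 points, counted against all Enah transcripts that span them, the short pair included. None of these 4 calls held with edgeR on reads, where adjusted p was 0.0933 to 0.116, or without the NPC OKMS library (falls of 7.35 to 8.30 points). On cassette reads the 146-base exon was in 49 of 49 reads in NPC and 146 of 151 in ESC (adjusted p = 0.404).

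**Figure D3:**
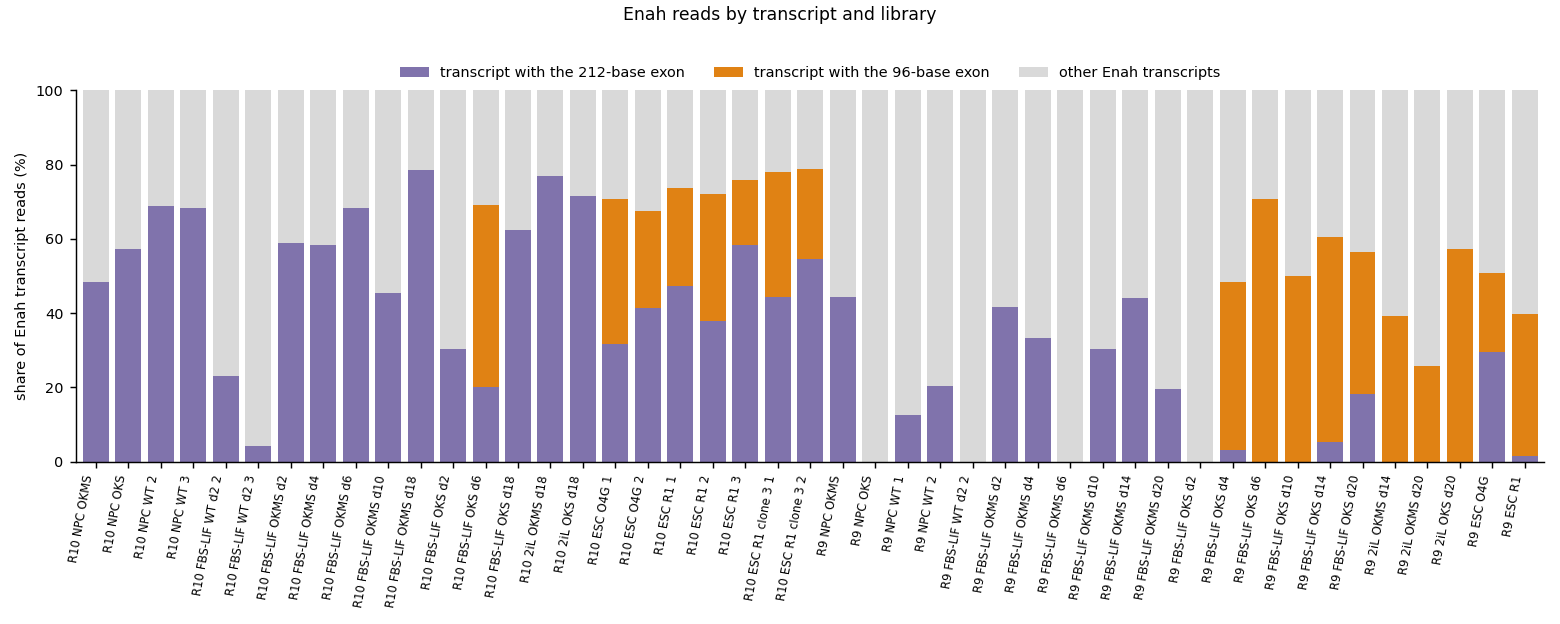
Share of Enah transcript reads (percent) in each of the 45 libraries for the transcript with the 212-base exon (purple), the transcript with the 96-base exon (orange) and all others (grey), R10 libraries first and then R9. Orange is present in all 9 ESC libraries and in OKS cultures, and at 0 in every NPC, WT and OKMS FBS-LIF library.

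Slk encodes a Ste20-like kinase that acts on the cytoskeleton and on cell migration. Its 93-base cassette, in the coiled-coil part, is in no deposited Slk transcript. Its count of 0 among 304 reads was therefore fixed by the annotation and sets no limit. The reads over its place were 54 in R10 NPC, 85 in R10 ESC and 140 in all FBS-LIF libraries. A short noncoding Slk transcript of 550 bases had 0 reads in R10 NPC and 22 of the 192 Slk transcript reads in R10 ESC. Its mean share there was 26.4% of Slk TPM (limma, adjusted p = 0.00342), but it had 0 reads in R1 replicate 3. A 561-base partial match of the coding transcript had a share of 26.0% in NPC and 9.02% in ESC (adjusted p = 0.0397, or 0.0662 with a pseudocount of 0.25 TPM), and within the set of the NPC libraries it stood at 0% in ESC (adjusted p = 0.255).

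Arhgef11 encodes PDZ-RhoGEF, an exchange factor for RhoA. Its 30-base exon, 10 codons long, was in 82 of 142 reads (57.7%) over all libraries. It was in 22 of 36 reads (61.1%) in R10 NPC and 6 of 9 (66.7%) in R10 ESC (adjusted p = 0.911), which had few Arhgef11 reads. The 129-base exon was in 63 of 66 and 11 of 13 (adjusted p = 0.60), and the 120-base exon in 13 of 125 over all libraries. The 33-base exon is in no deposited transcript, so its 0 of 137 reads was fixed by the annotation.

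Cd44 encodes a hyaluronan receptor whose variable exons, between shared ends, mark epithelial forms. Of its 10 variable exons 5 had any read, and the others are in no deposited transcript. A variable exon was in 17 of 899 reads that span the block (1.89%, 1.11 to 3.01%). The standard form without them was the most common: its 2 most abundant transcripts had 373 and 103 reads and matched an annotated form over all 9 exons. By group, the reads with a variable exon were few, with 1 of 170 in R10 NPC, 2 of 100 in WT progenitors in FBS-LIF, 3 of 225 in R10 OKS, 1 of 35 in R9 NPC, 1 of 97 in R9 OKMS and 0 of 83 in R9 OKS. R10 OKMS stood at 9 of 172 (5.23%, 2.42 to 9.70%), and only there and in R9 OKMS were transcripts with 4 or 5 variable exons seen, with 7 reads in all. The other 10 reads held only the 207-base variable exon, in 8 libraries. R10 ESC had 5 Cd44 reads over the block and 0 with a variable exon.

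Fgfr1 and Fgfr2 encode receptors for fibroblast growth factors. The choice between exons IIIb and IIIc sets which ligands are bound, IIIb being the epithelial form. Fgfr1 had 4 reads with IIIb and 497 with IIIc (0.798% IIIb, 0.218 to 2.03%). The 4 were 2 of 7 reads in R10 OKMS day 10, 1 of 8 in R9 OKMS day 6 and 1 of 2 in R9 OKMS day 20, and Esrp1 was at 39.9, 9.55 and 11.1 CPM in those 3 libraries. The 6 other libraries with Esrp1 at 17.9 to 36.6 CPM had 0 reads with IIIb among 27. Fgfr2 had 91 reads with IIIc, with 5 in R10 ESC, 1 in R9 ESC and 0 in the 2i-LIF cultures. No deposited Fgfr2 transcript holds IIIb, so its count of 0 was fixed by the annotation and sets no limit.

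The first-loop exon of 267 bases was in 432 of 519 Fgfr1 reads (83.2%), with 67 of 75 in R10 NPC and 64 of 67 in R10 ESC (adjusted p = 0.531). In R9 it was in 41 of 69 OKS reads (59.4%) and 30 of 35 OKMS reads (85.7%, adjusted p = 1), and in R10 in 92 of 117 and 41 of 44. In Fgfr2 the first-loop exon of the same length was in 9 of 91 reads (9.89%).

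In the other comparisons 0 or 1 exon of these genes was called by the main test. In R9 ESC against NPC 0 of 33 exons were called (limma), against 3.02% of all exons. An unadjusted p under 0.05 was met by 17 of these and 3142 of all 25893. With edgeR on reads 1 was called, against 2.19%: the 96-base Enah exon (58.7 points higher in ESC, adjusted p = 0.0266). In the R9 time course 0 of 45 were called, against 0.544%, and edgeR also called 0. An unadjusted p under 0.05 was met by 1 of these and 5603 of all 44526. In 2i-LIF against FBS-LIF with doxycycline 0 of 30 were called, against 0% of 12483 exons, where 997 of all and 2 of these genes had an unadjusted p under 0.05, and edgeR called 63 of all and 0 of these. In 2i-LIF against ESC 1 of 17 was called, against 9.29%: the 118-base Ctnnd1 exon, at 58.0% in ESC and 0% in 2i-LIF (adjusted p = 0.000564). On cassette reads that exon, with 15 reads in 2i-LIF, was not called (adjusted p = 0.338), and it is the exon whose reads come mostly from the partial match. In WT cells given FBS-LIF and doxycycline against WT NPC 0 of 29 were called, against 6.23%. An unadjusted p under 0.05 was met by 24 of these and 3707 of all 19285. With edgeR on reads 5 were called, all in Enah, against 5.11%. A pseudocount of 0.25 TPM called 13 of the 29, against 5.63%, and leaving out FBS-LIF WT 2 called 11 of 31, against 3.94%, so this count depends on the setting and on 1 library. Cassette reads called 0 of the tested exons of these genes in R9 ESC against NPC (of 4, background 2.83%), in 2i-LIF against ESC (of 9, 0.399%), in OKMS against OKS (of 9, 0.535%) and in WT progenitors (of 10, 1.97%), with 0, 1, 1 and 1 at an unadjusted p under 0.05. Over all exons these last counts were 707 of 5118, 1078 of 15525, 479 of 10281 and 1507 of 10114.

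The levels of the genes themselves were tested on the log2(CPM + 1) scale. In R10 ESC against NPC 3 of the 8 genes were called, all lower, at an adjusted p under 0.05 and a log2 difference of at least 1, where 45.8% of 15415 genes were called (23.5% lower). In bulk samples fewer cells of a type and less RNA per cell cannot be told apart. The median difference of the 8 genes was −0.60, against 0.01 over all genes.

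Cd44 fell from 28.8 ± 6.44 CPM (SD, n = 4) in R10 NPC to 0.429 ± 0.369 CPM (n = 7) in ESC, with 2 ESC libraries at 0, and the groups did not overlap (log2 difference −4.40, SE 0.25, limma, adjusted p = 4.64e-10). In R9 it was 22.7 ± 3.80 CPM (n = 4) in NPC and listed at 0 in both ESC and all 3 2i-LIF libraries. Arhgef11 fell from 22.6 ± 6.93 to 3.63 ± 4.58 CPM (log2 difference −2.70, adjusted p = 1.01e-04), with R1 replicate 3 at 13.8 CPM against 0.387 to 3.11 in the other 6 ESC libraries and 14.5 to 31.1 in NPC. Fgfr1 fell from 73.7 ± 15.1 to 27.3 ± 7.07 CPM (log2 difference −1.42, adjusted p = 1.10e-05). Within the set of the NPC libraries, R1 replicate 3 is the 1 ESC library. The log2 differences there were −4.87 for Cd44, −0.62 for Arhgef11 and −0.82 for Fgfr1. A p-value of that fit rests on the spread of the NPC libraries alone.

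The other 5 genes did not meet both thresholds. Slk was 43.2 ± 9.58 CPM in R10 NPC and 22.5 ± 3.29 in ESC, a log2 difference of −0.90 that is under the threshold of 1, and −1.04 without NPC WT 3. Enah (31.2 ± 8.94 and 45.0 ± 4.11 CPM) and Numb (9.30 ± 1.12 and 13.9 ± 1.38 CPM) were 0.55 and 0.54 higher on the log2 scale, with adjusted p of 0.00742 and 0.00934. Ctnnd1 was 40.1 ± 4.07 and 38.5 ± 6.53 CPM (adjusted p = 0.70) and Fgfr2 1.83 ± 1.31 and 1.31 ± 1.19 CPM (adjusted p = 0.49).

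In R9 the 3 genes called, again all lower, were Cd44 (log2 difference −4.56), Arhgef11 (−1.39) and Slk (−1.28), where 36% of 15746 genes were called (18.4% lower). Without ESC O4G the Arhgef11 call was lost (−0.91, adjusted p = 0.111), and without ESC R1 that of Slk (−1.19, adjusted p = 0.0549). Fgfr1 stood at −0.34 there and Numb at −0.81 (adjusted p = 0.28). The difference between the chemistries, tested as an interaction over 18341 genes, passed for none of the 8 (Fgfr1 adjusted p = 0.0741, Numb 0.0863).

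Along the R9 courses Cd44 and Fgfr1 were called, both higher than at day 0 on some day, where 10.7% of 19357 genes were called (5.5% higher). Cd44 in OKMS was 18.8 CPM in NPC, 80.2 at day 2, 91.8 at day 4, 71 at day 6, 32.4 at day 10, 28.5 at day 14 and 8.62 at day 20. In OKS it was 20.2 CPM in NPC, 42.8, 52.4 and 36.1 at days 2, 4 and 6, 69.2 at day 10, 53.8 at day 14 and 5.03 at day 20. Fgfr1 in OKS was 55.6 CPM in NPC, 194, 244, 249 and 292 at days 2, 4, 6 and 10, 150 at day 14 and 58.2 at day 20. In OKMS it was 68.7 CPM in NPC, 160 to 161 from day 2 to day 6, 131 at day 10, 67.5 at day 14 and 30.8 at day 20. The 1 R9 WT library in FBS-LIF with doxycycline, at day 2, stood at 49.5 CPM of Cd44 and 208 CPM of Fgfr1. In R10 Cd44 was at 36.5 CPM in the WT cultures (n = 2) and 28.8 CPM in NPC. The part of the medium in these courses was not tested. Both genes stood above NPC from day 2 to day 6 in both systems and, at day 20, near or below it. Without day 20 neither was called (adjusted p 0.351 and 0.057), with the same largest log2 differences from day 0 as with it (1.78 and 1.67).

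Several levels were also higher in the WT cells given FBS-LIF and doxycycline. These stood at 137 CPM of Fgfr1 and 27.0 of Numb in R10 (n = 2), against 73.7 and 9.30 in NPC, and their 2 libraries had 8.61 and 12.2 CPM of Fgfr2 against a mean of 1.83 in NPC, values given without a test. Summed markers of astrocytes were 1188 to 3057 CPM in these 2 libraries and 42.6 to 181 CPM in R10 NPC, with all 4 genes of the list above 1 CPM in the former, and summed mesenchymal markers were 3484 to 3977 and 1875 to 2360 CPM. The part of such cells in these levels and in the exon values of the WT cultures was not tested. R10 OKS cultures in the same medium stood at 148, 38.0 and 12.1 CPM.

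**Figure D4:**
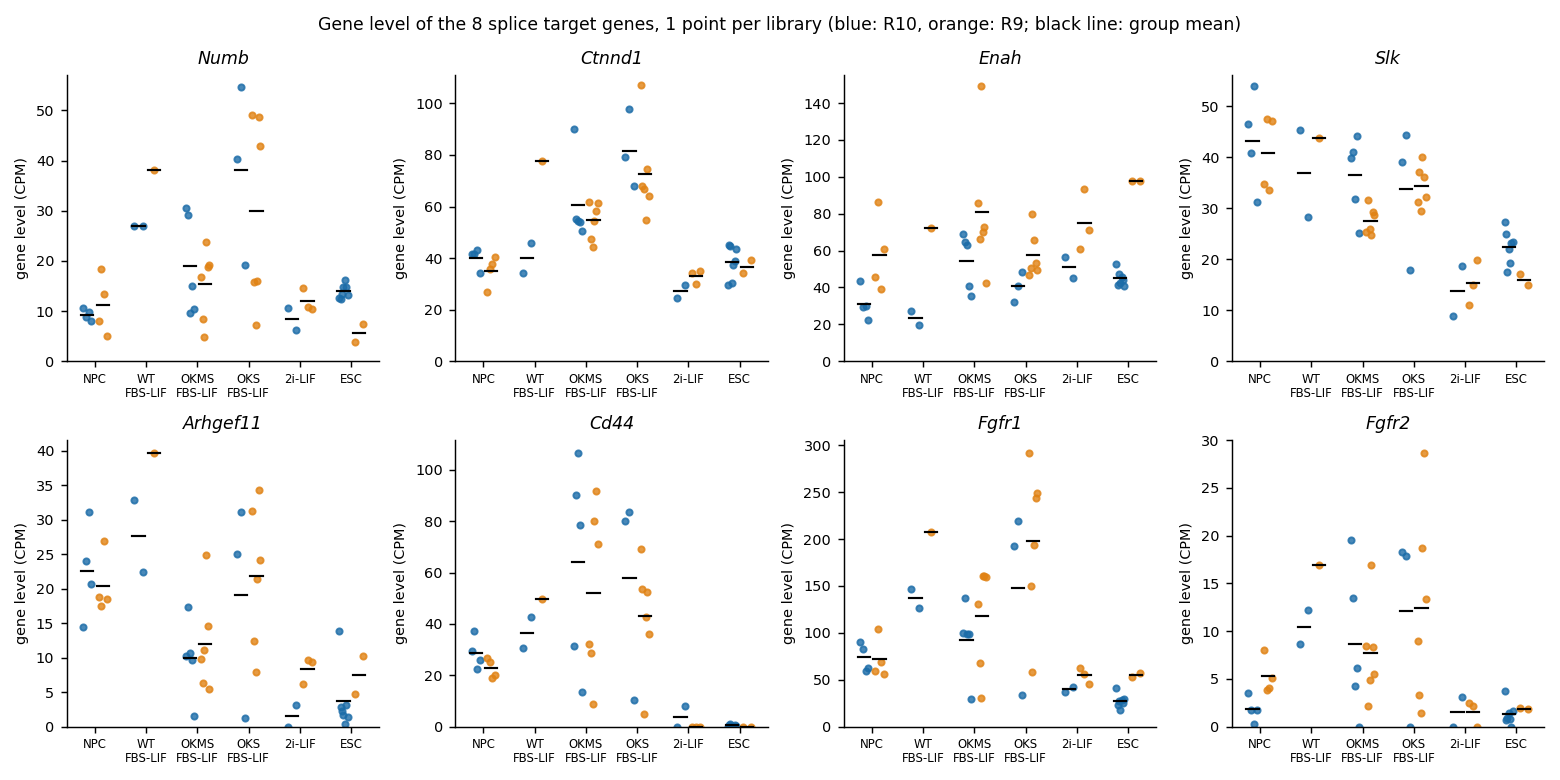
Gene level in CPM of the 8 genes, 1 point per library (blue R10, orange R9) with the group mean as a black line, by group from NPC through FBS-LIF and 2i-LIF cultures to ESC. Cd44 lies near 0 in ESC in both chemistries, and in R10 the group means of Fgfr1, Fgfr2 and Numb are higher in WT and OKS cultures in FBS-LIF than in NPC.

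For each gene the most alike gene over the 23 R10 libraries, among 11518 genes with a mean of at least 5 CPM, was found by Pearson correlation of log2(CPM + 1). It was Dpysl3 for Cd44 (r = 0.963), Clptm1 for Arhgef11 (0.964), Slc25a51 for Fgfr1 (0.962), Fam129b for Numb (0.925), Nrd1 for Slk (0.920), Trappc2l for Fgfr2 (0.916), Tmbim1 for Ctnnd1 (0.908) and Otud4 for Enah (0.895). These libraries share cell state, medium and library set, and the values are descriptions.

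The regulators of these exons were read at gene level. Esrp1 had 0 reads in every NPC and WT library of both chemistries. With OKMS it was at 0 to 0.790 CPM up to day 4 and then at 18.5 (day 6), 39.9 (day 10) and 20.8 CPM (day 18) in R10, and at 9.55, 36.6, 17.9 and 11.1 CPM at days 6, 10, 14 and 20 in R9. With OKS it stayed at or under 0.827 CPM to day 14 and was at 23 CPM at day 18 in R10 and 24.4 CPM at day 20 in R9. In ESC and 2i-LIF cultures it was low: 0 to 0.707 CPM in R10 ESC, 0 and 0.931 in R9 ESC, 1.56 and 1.76 in R10 2i-LIF (1 read each) and 0 in R9 2i-LIF. The course test did not call Esrp1 (adjusted p = 0.182), each day holding 1 OKMS and 1 OKS library.

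Esrp2, its paralog, had 1 read in the 4 R10 NPC libraries and 1.87 to 9.66 CPM in the 7 R10 ESC libraries (log2 difference 2.69, adjusted p = 2.15e-06), and it was 2.94 higher in R9 ESC (adjusted p = 5.59e-04). In the same R10 ESC libraries Esrp1 was at 0 to 0.707 CPM and the 63-base Enah exon was in 3 of 109 reads. Fgfr1 had 0 of 58 reads with IIIb there, which allows up to 5.17%. Fgfr2 had 5 reads, and no deposited transcript of it holds IIIb.

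Of the 27 splicing regulators listed, 22 were tested in R10 ESC against NPC, 5 higher and 7 lower, where 22.4% of all genes were called higher and 23.5% lower, so the count is near the background. The median log2 difference was −0.19 against 0.01 for all genes. Higher were Esrp2, Elavl2 (3.72), Rbm47 (1.74), Ptbp1 (1.59) and Ptbp3 (1.35). Lower were Rbm24 (−3.38), Celf2 (−3.34), Nova1 (−3.30), Mbnl1 (−2.51), Elavl4 (−2.18), Rbfox3 (−1.89) and Nova2 (−1.17). In R9 20 were tested, 2 higher and 5 lower, against 17.6% and 18.4% of all genes. Rbfox2 did not pass the size in either (0.27 and 0.06), and Qki, also on the list, was not among the genes tested.

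**Figure D5:**
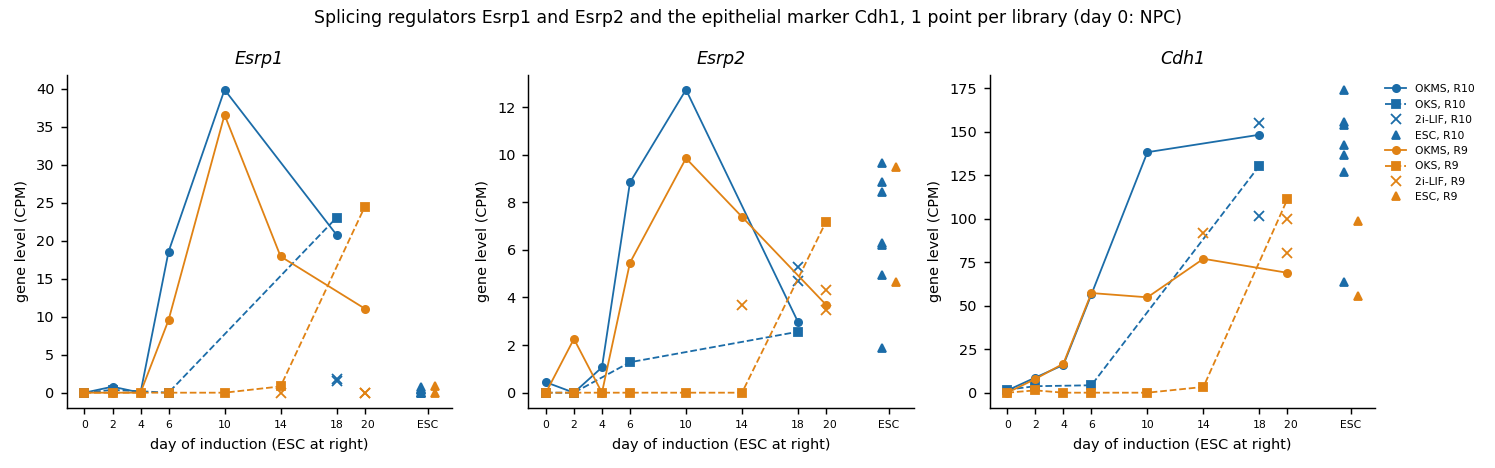
Level in CPM of Esrp1, Esrp2 and Cdh1 against day of induction, with ESC at the right, 1 point per library (circles OKMS, squares OKS, crosses 2i-LIF, triangles ESC, blue R10, orange R9). Esrp1 reaches 39.9 and 36.6 CPM at day 10 in OKMS and lies at or under 0.931 CPM in ESC, where Cdh1, the epithelial cadherin, is high.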

How the data were processed

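Gene values are CPM (gene reads scaled to a fixed library total) and transcript values are TPM (length-scaled transcript reads), both as deposited by the authors. Reads were aligned with minimap2 2.24-r1122 to mm10, per the submitters' processing notes. The deposited tables carry the name IsoQuant, a long-read transcript caller and counter; its version and settings are not given in the sources used here. In the tables, 13 columns of other samples were not used.

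Both units step in whole reads: all CPM values, and all TPM values times transcript length, lay within 0.02 of a whole read, and the reads so recovered are those printed. Gene reads per library had medians of 814717.5 (R9) and 2342551 (R10), and transcript reads were 199943 to 605378 and 241811 to 2129779. Exon inclusion and transcript shares rest on the transcript reads only, which were 38.0 to 52.9% of the gene reads of a library. Numb had 98 gene reads and 36 transcript reads in R10 NPC, and 307 and 82 in R10 ESC. For Fgfr1 these were 752 and 118 in NPC, and 587 and 117 in ESC. Whether the gene reads without a transcript differ in their exons was not tested. Most alternative exons of the 8 genes thus had few reads per library.

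An alternative exon was an internal exon that 1 transcript of its gene includes and another skips. Exon inclusion was tested with limma 3.58.1 (R 4.3.3) on log2((inclusion TPM + 1)/(skipping TPM + 1)) over the exons of all genes, with a mean of at least 2 TPM in each arm. Transcript shares were tested in the same way, and gene levels as log2(CPM + 1) with a minimum of 1 CPM. Benjamini-Hochberg adjustment covered all features. Calls needed an adjusted p under 0.05 and a difference of 10 points or, for genes, 1 on the log2 scale. A fold on this scale understates the change of low genes. edgeR 4.0.16 (quasi-likelihood) and DESeq2 1.42.0 were run on recovered reads as alternatives. Chosen after seeing the data were the cassette-only definition of skipping, edgeR on reads, edgeR on cassette reads (at least 5 with, 5 without, and 5 per arm) and the gene test within a library set. Tables and intervals were made with Python 3.11.15, pandas 2.3.3 and scipy 1.17.1.

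The members, the exon and regulator lists and the tests were chosen with earlier results of these data known. The rule named every fitted exon of the 8 genes in R10 ESC against NPC, their known epithelial-mesenchymal exons, and the 2 transcripts of each gene with the highest mean TPM. The 990-base and 1503-base Ctnnd1 and the 550-base Slk transcripts lie outside that rule and were named after their values were seen, because their shares were called. On simulated data with 200 exons changed by far more than the 10-point threshold, the R10 ESC against NPC test recovered 92.5%. The R9 test recovered 0% (9% with edgeR), so an R9 count of 0 says little. Smaller changes and the test on cassette reads were not simulated. The sequences of the Fgfr1 and Fgfr2 exons are not reported here.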

Additional observations from a re-analysis of the deposited data

Results flagged for a closer look

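Of 34 groups of 4 to 10 libraries tested for a library far from the rest, 2 held one, and chance alone marks about 1 group in 20. Both were for the level of Arhgef11. In R10 ESC the library R1 replicate 3 stood at 13.8 CPM and the other 6 at 0.387 to 3.11 CPM. It is the ESC library in the set of the NPC libraries. In R9 NPC the OKMS library stood at 26.9 CPM and the other 3 at 17.4 to 18.7 CPM.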

How the results depend on the processing

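Of the values of single exons and genes under the alternatives, 541 kept direction and side of the threshold, 31 lost and 6 gained a call, and 1 reversed: the 63-base Ctnnd1 exon, at −16.4 points in R10 ESC against NPC with cassette junctions only. For R10 ESC against NPC, 3095 exons were called in all and 22 of the 8 genes. With cassette junctions only the counts were 791 and 2, on cassette reads 868 and 2, within a library set 620 and 0, with both chemistries together 1985 and 11, and with a minimum of 5 TPM 10 of the 8 genes. Leaving out 1 library gave 2601 to 3715 and 18 to 23. For R9, 781 and 0 were called; the counts were 1209 and 1 in percent, 60 with cassette junctions only, 145 on cassette reads, and 1 of the 8 genes with edgeR. Leaving out 1 library gave 2 to 602 and 0 to 0, with 494 without NPC WT 2, 494 without NPC OKMS, 2 without ESC O4G and 3 without ESC R1. For the R9 course, 242 and 0 became 0 with a pseudocount of 0.25 TPM, 686 and 1 in percent, 20 with cassette junctions only and 519 with edgeR. Without 1 day or NPC library the course gave 0 to 308 and 0 to 0, with 142 without day 4, 110 without day 6, 40 without day 14, 59 without day 20 and 0 without either NPC library. For 2i-LIF against FBS-LIF, 0 became 63 with edgeR and was 0 to 0 with 1 pair left out. For 2i-LIF against ESC, 1658 and 1 became 204 and 0 with cassette junctions only and 62 and 0 on cassette reads, and 0 of the 8 genes without partial matches or with edgeR; leaving out 1 library gave 1310 to 1768 and 1 to 1. For OKMS against OKS, 146 and 1 became 2 and 0 with cassette junctions only, 55 and 0 on cassette reads and 269 in all with edgeR, and 0 of the 8 genes with a pseudocount of 0.25 TPM or in percent. Leaving out 1 day gave 86 to 204 and 0 to 2, with 86 without day 10 and 95 without day 14. For the WT cells in FBS-LIF, 1201 and 0 became 83 with cassette junctions only and 199 on cassette reads, and of the 8 genes 13 with a pseudocount of 0.25 TPM, 3 with a minimum of 5 TPM, 2 with none and 5 with edgeR. The counts with a minimum of 5 TPM or none are given without the exons tested, so they are not set against a background. Leaving out 1 library gave 425 to 1004 and 0 to 11, with 425 without NPC WT 3, 489 without NPC WT 2 and 11 without FBS-LIF WT 2. The fit with the replicate number as a block called 1286 and 2, likewise given without the exons tested. Libraries sharing a number had deviations correlated at r = 0.0701 over 19285 exons with 2 pairs, so the numbers were not taken to pair them. Transcript shares, 6511 and 7, became 856 and 1 within a library set and 5808 to 7730 and 6 to 8 with 1 library left out. Of the 8 genes 3 were called in R10 and 3 to 4 with 1 library left out (6943 to 7267 in all). In R9 the ranges were 2 to 4 and 4038 to 5880. For the gene course, 2078 and 2 became 4573 and 4 with edgeR, and 601 to 2423 and 0 to 3 with 1 day or NPC library left out, with 1367 without day 2 and 601 and 0 without day 20. Centring each library on its median moved the median log2 difference over all R10 genes by 0.24. The set of the NPC libraries holds 1 ESC library. The fit with cassette junctions only tested 7471 exons in R10 ESC against NPC where the main one tested 18255. For the other changes, cassette reads (18651 exons) included, the cause was not tested. Depth limits these results most in R9 and in Numb, Arhgef11 and Fgfr2.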
